A study of Mus musculus with 9 samples.

Results

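The miR-181 family was followed through 9 mouse liver libraries as 7 rows of a small-RNA read count table, each row being 1 mature microRNA (miRNA, a short RNA that guides Argonaute proteins to messenger RNAs). The rows were taken by name, 7 of 7 names were found among the 946 rows of the table, and all 7 were among the 360 rows that passed the filter on low counts. All livers came from wild-type C57 BL6 mice 8 weeks old. The 3 Control libraries are from saline-treated mice and the 3 APAP libraries from mice injected intraperitoneally with 500 mg/kg acetaminophen (APAP), which injures hepatocytes at high dose. The 3 dmPGE2+APAP libraries are from mice that also received 300 µg/kg dmPGE2, a stable prostaglandin E2 analog, by the same route 1 h before that acetaminophen dose. The sample titles give 6 h for all groups, read here as the time after acetaminophen, or after saline in Control. Since dmPGE2 was never given by itself, it could be compared only on top of acetaminophen. The labels do not tie each library to an animal of its own. The p-values therefore reflect the spread among libraries, and that spread may be technical.

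A miRNA hairpin is cut to a short duplex whose 5′ arm (5p) and 3′ arm (3p) can each be loaded into Argonaute, and the seed at bases 2 to 8 contributes most to target recognition. In the miR-181 family the 5p arms are the usual guides. In mice, miR-181a-5p is known for tuning T cell receptor sensitivity in developing thymocytes, and miR-181b-5p for restraining NF-kB signalling in endothelium by lowering an importin. In human liver cancer, miR-181 members mark progenitor-like cells.

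The family is encoded at 3 loci in GRCm38.p6, the same build as mm10. Hairpins Mir181a-1 (chr1:137966455-137966541) and Mir181b-1 (chr1:137966639-137966718) lie side by side on the plus strand, as do Mir181a-2 (chr2:38852735-38852810) and Mir181b-2 (chr2:38853830-38853918). On the minus strand of chromosome 8, the 5p arm of Mir181c (chr8:84178924-84178945) lies near hairpin Mir181d (chr8:84178716-84178787). The 7 mature sequences from RefSeq are shown because the reading of every value depends on how alike they are, with the seed in capitals.
mmu-miR-181a-5p: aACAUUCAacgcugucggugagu
mmu-miR-181b-5p: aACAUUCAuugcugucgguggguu
mmu-miR-181c-5p: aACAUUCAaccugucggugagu
mmu-miR-181d-5p: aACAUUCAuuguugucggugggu
mmu-miR-181a-1-3p: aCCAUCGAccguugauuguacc
mmu-miR-181a-2-3p: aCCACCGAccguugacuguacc
mmu-miR-181c-3p: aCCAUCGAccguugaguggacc
All 4 5p arms carry the seed ACAUUCA, and among 1679 mature mouse miRNAs in the reference these 4 are the only carriers. The arms miR-181a-1-3p and miR-181c-3p share the seed CCAUCGA, while miR-181a-2-3p differs from miR-181a-1-3p by U5C inside the seed and U16C outside it, counted from the 5′ end. From miR-181a-5p to miR-181b-5p the changes are A9U, C10U and A21G plus 1 further base at the 3′ end. The arms miR-181b-5p and miR-181d-5p are set apart by C12U and the last base. One edit, a base missing from the middle, separates miR-181c-5p from miR-181a-5p. How many mismatches were allowed and where reads matching several places were counted is not stated in the labels or file, so the division of reads between these near-identical arms is uncertain. Some other entries of the table carried the same values in every library, as miR-142a-3p and miR-142b did. Whether reads of the miR-181 arms were counted at more than 1 entry was not tested. The sequences of miR-181a-5p and miR-181b-5p are each the same at the chromosome 1 and chromosome 2 loci, so the 5p counts cannot be assigned to a locus, whereas miR-181a-1-3p and miR-181a-2-3p are specific to 1 locus each.

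Library totals, summed over all rows of the table, ran from 1038799 to 10483460 reads. The 7 miR-181 rows held between 482 reads (dmPGE2+APAP replicate 2, the shallowest library) and 4939 reads (Control replicate 3). Both miR-122-5p and miR-122b-3p, which had nearly the same values in every library, count towards the totals. Together the miR-181 rows made up 0.0385% ± 0.00784 of the total in Control libraries (SD, n = 3). The share was 0.0404% ± 0.00399 for APAP and 0.0426% ± 0.00341 for dmPGE2+APAP. The hepatocyte marker list held 5 rows, miR-122-5p, miR-192-5p, miR-194-5p, miR-148a-3p and miR-802-5p. They summed to 375349 to 524818 CPM (counts scaled to a common library size, here by edgeR's TMM factors) in Control. With APAP they summed to 328501 to 388163 CPM, and with dmPGE2+APAP to 353041 to 392636. The row miR-802-5p added little to these sums, at 5.11 to 10.3 CPM over all libraries. In that list miR-122-5p stood at 179856 CPM in Control replicate 1 and 323931 in Control replicate 2. Its near-equal entry miR-122b-3p stood at 179825 and 323912 CPM. What this pair does to the shares and to CPM by library total was not tested. In a bulk tissue, fewer cells of a type and less RNA per cell cannot be told apart. Among the 4 erythroid marker rows, of which 0 were at 0, the summed level was 431 to 543 CPM in the Control libraries, 731 to 1398 with APAP and 352 to 379 with dmPGE2+APAP. The 3 myeloid rows summed to 118 to 228, 168 to 309 and 147 to 233 CPM in the same order. The 3 lymphocyte rows, also all detected, ranged from 16.6 to 37.0, from 23.7 to 37.9 and from 29.3 to 35.2 CPM. The 2 endothelial rows summed to 7437 to 9115, 7990 to 9434 and 8788 to 10174 CPM, and the 4 stellate and mesenchymal rows to between 24412 and 41527 CPM over all libraries. The part of blood and stromal cells in the miR-181 values was not tested.

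The family was dominated by 1 arm in every library. The guide miR-181a-5p averaged 326 CPM over the 9 libraries and ranked 58 of 360 tested miRNAs, and it made up 85.2% ± 0.958 of the summed 5p level in Control (SD, n = 3). Its share was 86.3% ± 0.981 with APAP and 85.3% ± 2.74 with dmPGE2+APAP. Next came miR-181b-5p at 31.1 CPM (rank 139) and miR-181d-5p at 15.1 CPM (rank 186). The remaining arms lay close together, with miR-181a-1-3p at 9.66, miR-181c-5p at 8.76, miR-181c-3p at 7.77 and miR-181a-2-3p at 4.55 CPM. Levels of different miRNAs can carry ligation and PCR preferences of each sequence, so this order is one of reads.

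The top of the order held in each group. The libraries of miR-181a-5p lay above those of miR-181b-5p without overlap in 3 of 3 groups, and so did those of miR-181b-5p above those of miR-181d-5p. Between miR-181d-5p and miR-181a-1-3p the ranges overlapped in dmPGE2+APAP, and between miR-181a-1-3p and miR-181c-5p they overlapped in all 3 groups. The 2 arms of Mir181c, the hairpin whose 5p arm has been found in mitochondria of rat heart muscle, overlapped in APAP and dmPGE2+APAP, and miR-181c-3p overlapped with miR-181a-2-3p in Control and dmPGE2+APAP. The other products of these hairpins were near the detection limit, with 9 reads of miR-181b-1-3p, 3 of miR-181b-2-3p and 3 of miR-181d-3p in all libraries combined.

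**Figure D1:**
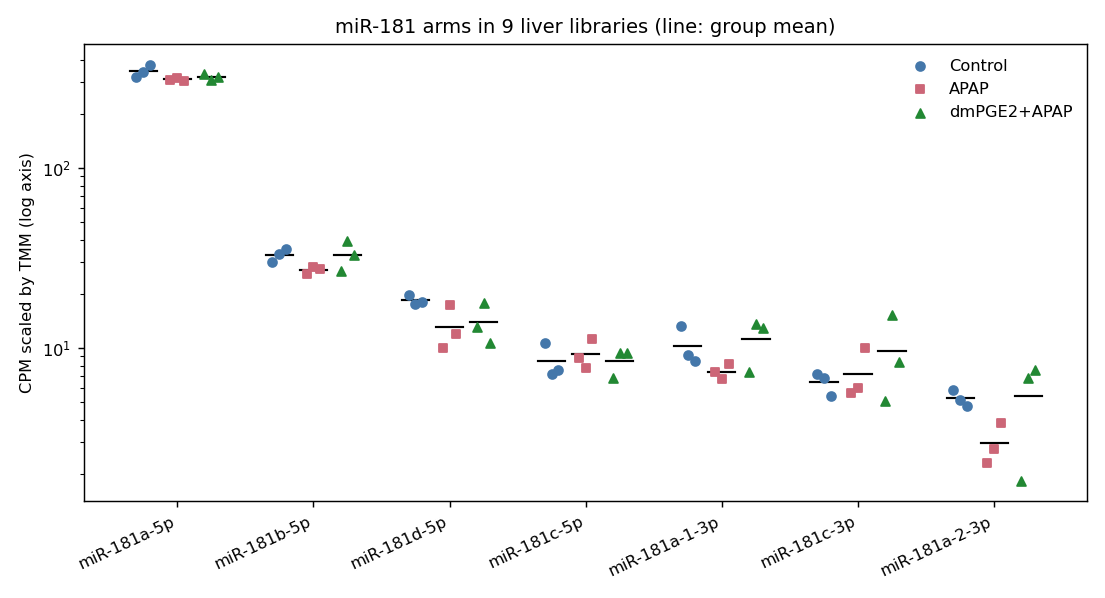
Level of each miR-181 arm in CPM scaled by TMM (log axis) for the 3 Control (circles), 3 APAP (squares) and 3 dmPGE2+APAP libraries (triangles), with a line at each group mean. miR-181a-5p sits near 326 CPM in all groups, about 10.5 times the level of miR-181b-5p, and in every group the libraries of these 2 arms do not overlap.

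The first comparison asked how acetaminophen alone changed the family after 6 h. No arm passed the test: edgeR called 0 of 7 members, against 0.833% of all 360 tested miRNAs called higher and 0% called lower at an adjusted p under 0.05. At an unadjusted p under 0.05 the count was also 0 of 7, where 9.72% of all tested miRNAs met it, and DESeq2 and limma-voom each called 0. Log2 fold changes were below 0 for 5 of 7 arms and above 0 for 2, with a median of -0.28 against -0.05 over all tested miRNAs, of which 44.7% were above 0.

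Among the guides, miR-181a-5p held 319.7, 342 and 375 CPM in Control replicates 1, 2 and 3, and 310.2, 317 and 305 CPM in the APAP replicates. Every APAP library lay below every Control library, with a gap of 2.35 CPM between the nearest libraries. The log2 fold change was -0.15 (SE 0.18) with a 95% interval from -0.53 to 0.23, and the edgeR adjusted p was 0.791. For miR-181b-5p the Control libraries held 30.1, 33.3 and 35.7 CPM and the APAP libraries 25.9, 28.2 and 27.5. These groups did not overlap either, and the log2 value was -0.28 (SE 0.22, interval -0.75 to 0.20, edgeR adjusted p 0.690).

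The largest difference among the guides was in miR-181d-5p. It held 19.7, 17.5 and 18.1 CPM in Control and 10.1, 17.3 and 11.96 CPM in APAP, again without overlap, although APAP replicate 2 was only 0.271 CPM under the nearest Control library. Its log2 value was -0.49 (SE 0.28, interval -1.09 to 0.11, edgeR adjusted p 0.546). Its neighbour on chromosome 8 went the other way in sign, since miR-181c-5p held 10.7, 7.20 and 7.55 CPM in Control and 8.78, 7.81 and 11.2 in APAP (log2 0.12, SE 0.30), with overlapping groups.

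Both passenger arms of miR-181a had log2 values below 0. The chromosome 1 product miR-181a-1-3p had 13.4, 9.10 and 8.48 CPM in Control and 7.34, 6.71 and 8.13 in APAP (log2 -0.48, SE 0.31, interval -1.15 to 0.19). Without Control replicate 1 its log2 value was -0.21, with an edgeR adjusted p of 0.845. The chromosome 2 product miR-181a-2-3p had 5.87, 5.16 and 4.79 CPM in Control and 2.30, 2.74 and 3.83 in APAP, from only 16 to 20 reads in each APAP library. That is the lowest log2 value of the family in this comparison, -0.86 (SE 0.44, interval -1.80 to 0.08), with an unadjusted p of 0.0716 and an edgeR adjusted p of 0.526. The groups of both arms were separate, but neither passed. In miR-181c-3p the groups overlapped, at 7.19, 6.79 and 5.44 CPM against 5.61, 6.03 and 10.04 (log2 0.14, SE 0.37).

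**Figure D2:**
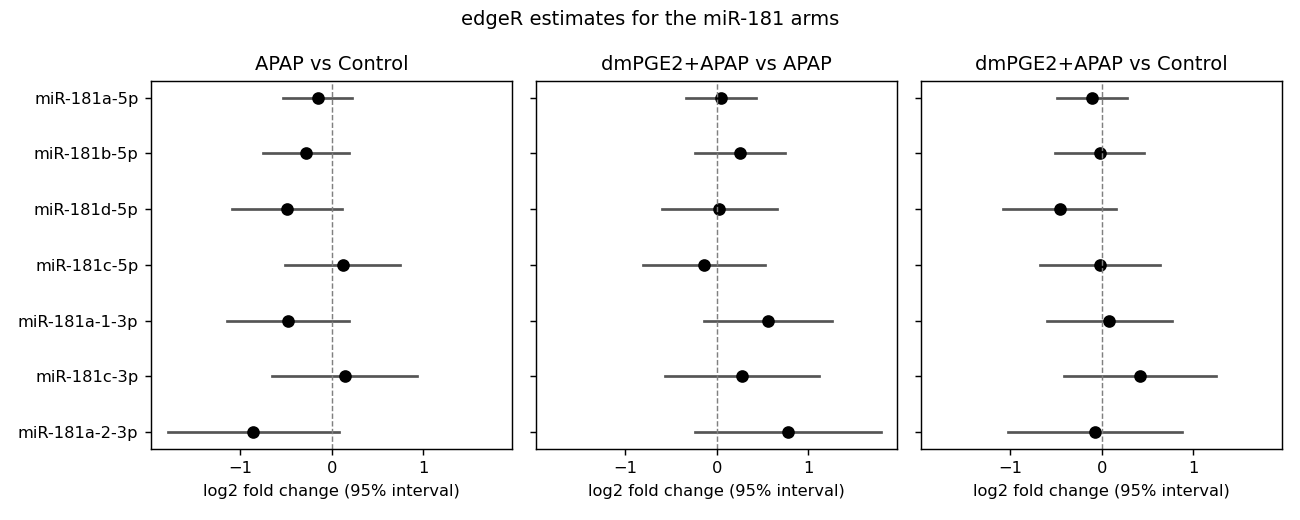
Log2 fold change of each miR-181 arm (points) with its 95% interval from edgeR (bars) in the 3 comparisons, where a dashed line marks no difference. Every one of the 21 intervals spans 0. The narrowest belong to miR-181a-5p, at 0.38 on either side of the estimate, and the widest to miR-181a-2-3p, at up to 1.02.

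That 5 of 7 arms were lower in APAP without overlap rested on the library scaling. Under TMM, 8.06% of all tested miRNAs were lower in this way and 8.61% higher. With CPM by library total, 0 of 7 arms were lower without overlap, where the shares of all tested miRNAs were 1.67% lower and 16.4% higher. Upper-quartile factors gave 4 of 7 and DESeq2's size factors 3 of 7. The TMM count fell to 3 of 7 without Control replicate 1 or without APAP replicate 3. Leaving out a library also meant computing the filter and TMM factors anew, and only that rescaling can make groups overlap. The 3p arms of miR-181a come from the same hairpins as miR-181a-5p, and the division of reads between the 5p arms is uncertain, so these are not independent counts.

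The scaling moved all miRNAs together. Going from TMM to library totals raised the median log2 change of all tested miRNAs by 0.25, to 0.20, and miR-181a-5p then stood at 0.09 in place of -0.15. Relative to that median it was at -0.11 under either scaling. Of the 7 arms, 5 lay below the median of all miRNAs under TMM and 5 under library totals. Summed over the 4 guides, the level was 405 ± 28.5 CPM in Control (SD, n = 3), 361 ± 8.72 with APAP and 376 ± 2.87 with dmPGE2+APAP. By library total Control had the lowest mean in place of the highest, at 365 ± 77.6, 385 ± 33.8 and 398 ± 22.3 CPM, with overlapping groups. Within Control, miR-181a-5p varied by a CV of 8.05% under TMM and 21.9% by library total.

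**Figure D3:**
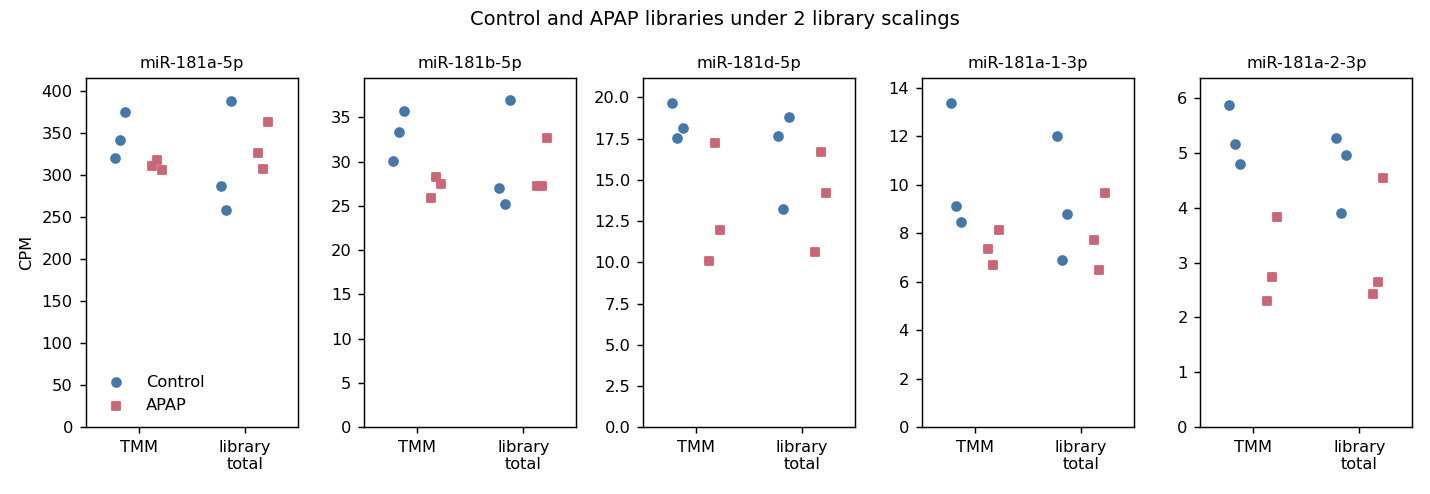
CPM of the 5 arms whose APAP libraries (squares) all lay below the Control libraries (circles) under TMM, shown beside the same libraries by library total; each axis starts at 0. The separation under TMM closes under library totals, where 0 of the 5 arms keep apart.

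The second comparison asked how dmPGE2 given before acetaminophen altered these levels. Again edgeR called 0 of 7 arms, against 0% of all tested miRNAs called higher and 0.278% called lower, and 0 of 7 had an unadjusted p under 0.05, which 6.39% of all tested miRNAs had. DESeq2 and limma-voom also called 0. Log2 values were above 0 for 6 of 7 arms, with a median of 0.26 against 0.00 over all tested miRNAs, of which 50% were above 0. This comparison shares its APAP libraries with the first, so its log2 values are not independent of those in the first. No arm separated the groups under TMM, where 5.83% of all tested miRNAs were higher without overlap and 8.06% lower.

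The guide miR-181a-5p held 333, 308 and 321 CPM in dmPGE2+APAP, so replicate 2 fell within the APAP range and the others lay just above it, within the Control range. Its log2 value was 0.04 (SE 0.18) with a 95% interval from -0.34 to 0.43. For miR-181b-5p the dmPGE2+APAP libraries held 26.9, 39.2 and 32.9 CPM, so replicate 1 fell among the APAP libraries and the others lay above them (log2 0.26, SE 0.23). miR-181d-5p held 13.1, 17.9 and 10.6 CPM (log2 0.03, SE 0.30) and miR-181c-5p held 6.79, 9.37 and 9.40 CPM (log2 -0.14, SE 0.31). Both overlapped with APAP.

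The passenger arms of miR-181a split the dmPGE2+APAP libraries. miR-181a-1-3p stood at 7.35 CPM in replicate 1 and at 13.6 and 12.9 CPM in replicates 2 and 3 (log2 0.56, SE 0.33, interval -0.14 to 1.26). miR-181a-2-3p showed the same division, with 1.84 CPM in replicate 1 and 6.82 and 7.56 CPM in replicates 2 and 3 (log2 0.78, SE 0.48, interval -0.23 to 1.80). In both arms replicate 1 was in or below the APAP range, while the other libraries lay above it. The edgeR adjusted p was 0.842 for the former and 0.885 for the latter. Without replicate 1 these log2 values became 0.84 and 1.33, with edgeR adjusted p of 0.368 and 0.177, and they still did not pass. Without replicate 3 of dmPGE2+APAP they became 0.41 and 0.17, each with an edgeR adjusted p of 0.983. miR-181c-3p stood at 5.09, 15.3 and 8.38 CPM (log2 0.28, SE 0.40), and without replicate 2 its log2 value was -0.06.

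Few reads stood behind the rare arms in the shallowest library. In dmPGE2+APAP replicate 2, the 18 reads of miR-181c-3p correspond to 15.3 CPM with an exact 95% Poisson interval of 9.09 to 24.2 CPM, and the 8 reads of miR-181a-2-3p to 6.82 CPM with an interval of 2.94 to 13.4. The 362 reads of miR-181a-5p gave 308 CPM with an interval of 278 to 342. These intervals cover counting error only, since PCR copies are not independent molecules. Without this library the log2 value of miR-181c-3p turned from 0.28 to -0.06.

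The third comparison set livers given both agents against Control. Here too edgeR, DESeq2 and limma-voom called 0 of 7 arms, against 0.278% of all tested miRNAs called higher and 0% called lower by edgeR. At an unadjusted p under 0.05 there were 0 of 7, beside 10.6% of all tested miRNAs. Log2 values were above 0 for 2 of 7 arms and for 46.1% of all tested miRNAs, with medians of -0.02 and -0.03. The abundant guides lay close to Control, with miR-181a-5p at -0.11 (SE 0.18, interval -0.49 to 0.27) and miR-181b-5p at -0.02 (SE 0.23, interval -0.51 to 0.46). With library totals, which raised the median of all miRNAs by 0.22, they stood at 0.12 and 0.22.

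The lowest value belonged to miR-181d-5p, at -0.46 (SE 0.29, interval -1.08 to 0.16, edgeR adjusted p 0.522). Its mean was 18.4 ± 1.10 CPM in Control (SD, n = 3). With APAP the mean was 13.1 ± 3.72 CPM, and with dmPGE2+APAP it was 13.9 ± 3.69 CPM. Over the 17 alternative fits of this comparison it ranged from -0.58 to -0.22 and was called in 0. The highest was miR-181c-3p at 0.42 (SE 0.39), which became 0.79 without dmPGE2+APAP replicate 1 and 0.11 without replicate 2, while miR-181c-5p stood at -0.02 (SE 0.31), miR-181a-1-3p at 0.08 (SE 0.32) and miR-181a-2-3p at -0.07 (SE 0.45). All 7 arms overlapped between the groups under TMM, where 6.11% of all tested miRNAs were higher without overlap and 8.61% lower.

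Ratios between arms are free of the library scaling. The ratio of miR-181a-5p to miR-181b-5p reads, arms whose hairpins lie together at both loci, was 10.6, 10.3 and 10.5 in Control replicates 1 to 3 and 11.97, 11.2 and 11.1 in the APAP replicates. The dmPGE2+APAP libraries stood at 12.4, 7.87 and 9.75. All APAP libraries exceeded all Control libraries, and the two-sided exact permutation p was 0.1, the smallest possible with 3 libraries a side (0.75 after Benjamini-Hochberg adjustment over 15 ratio tests). It was the only one of the 15 without overlap. The ratio of miR-181d-5p to miR-181c-5p, neighbours on chromosome 8, was 1.84, 2.43 and 2.40 in Control and 1.15, 2.21 and 1.06 in APAP (exact permutation p = 0.2). APAP replicate 2 fell inside the Control range, and the other APAP libraries lay below it. In dmPGE2+APAP this ratio was 1.94, 1.91 and 1.13.

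The ratio of guide to passenger reads differed between miR-181a, whose 5p reads cannot be assigned to 1 locus, and Mir181c. Sequence preferences of ligation and PCR and the uncertain division of reads between the 5p arms bear on these ratios. What part they have in the difference was not tested. Reads of miR-181a-5p exceeded those of its 2 passenger arms together by 15.1 to 36.2 times, with a median of 25.5 over 9 libraries. The ratio was 23.0 ± 5.88 in Control (SD, n = 3). It was 30.4 ± 4.29 with APAP and 22.3 ± 12.01 with dmPGE2+APAP. For Mir181c the 5p arm exceeded the 3p arm by a median of only 1.30 times, and in dmPGE2+APAP replicate 2 it was the rarer arm at 0.611. The chromosome 1 product miR-181a-1-3p outnumbered the chromosome 2 product miR-181a-2-3p in all 9 libraries, by 1.70 to 4 times. None of these 3 ratios separated any 2 groups, with exact permutation p between 0.2 and 1.

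**Figure D4:**
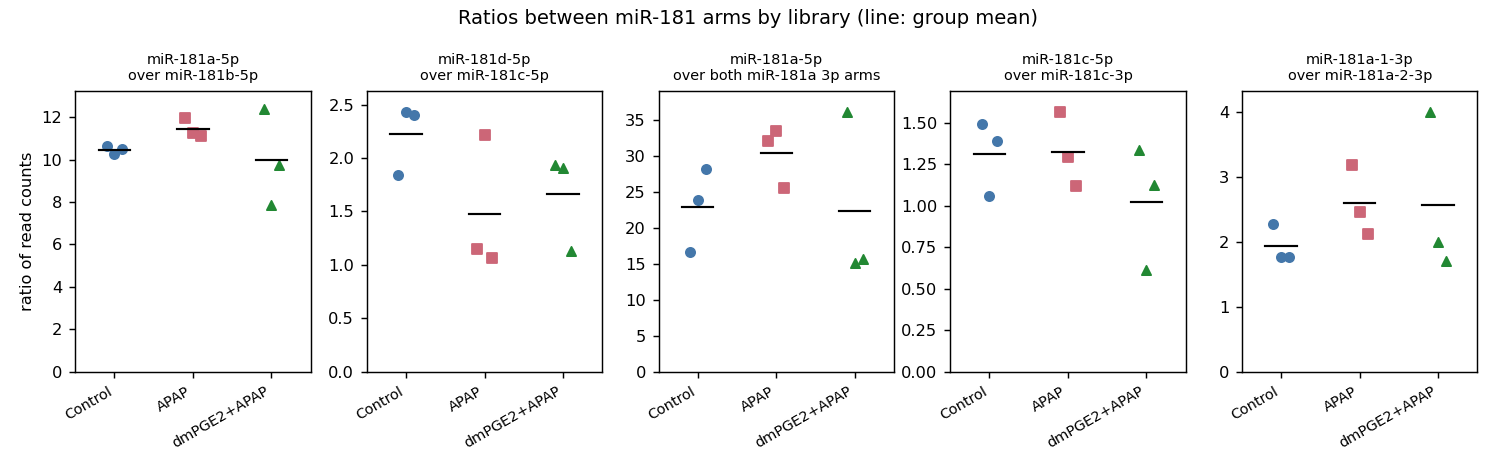
Ratios of read counts between miR-181 arms in each library (points, linear axes from 0) with group means (lines) for Control, APAP and dmPGE2+APAP. The ratio of miR-181a-5p to miR-181b-5p runs from 7.87 to 12.4 and that of miR-181a-5p to its passenger arms from 15.1 to 36.2, with dmPGE2+APAP the most scattered group in both.

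Across libraries, some arms moved together. The following correlations describe log2 CPM over the same 9 libraries, which share their scaling and their depth, and carry no test. The passenger arms miR-181a-1-3p and miR-181a-2-3p, from different chromosomes but of similar sequence, had Pearson's r of 0.87 (Spearman's rho 0.88). The pair miR-181a-5p and miR-181b-5p had r of 0.35 (rho 0.30), and miR-181a-5p and miR-181c-5p, the pair 1 edit apart, had r of -0.63 (rho -0.68). The remaining pairs ran from r of 0.80 (rho 0.77) for miR-181a-2-3p and miR-181b-5p to -0.53 (rho -0.62) for miR-181a-5p and miR-181c-3p. Under TMM, the guide miR-181a-5p itself spanned only 0.30 on the log2 scale over all libraries, with a within-group CV of 5.25%. By library total it ran from 258 to 388 CPM, with a CV of 21.9% within Control. The median within-group CV under TMM was 20.6% over the 206 tested miRNAs with a mean of at least 10 CPM, many of them rarer than miR-181a-5p.

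Of 203 miRNAs outside the family at that abundance, those most like miR-181a-5p in pattern were miR-10a-5p (r 0.92), miR-122-3p (0.90), miR-194-2-3p (0.88), miR-151-5p (0.84) and miR-28a-3p (0.84). Without the 2 libraries farthest from the median of miR-181a-5p these became 0.73, 0.44, 0.68, 0.61 and 0.36. The 5 were picked as the highest r, and leaving out the farthest libraries narrows the range. A fall in r therefore cannot show what the likeness rested on. For miR-181b-5p the 5 most alike were miR-203-3p (r 0.92), miR-674-3p (0.85), miR-676-3p (0.85), miR-187-3p (0.84) and miR-200a-5p (0.82), and without its 2 farthest libraries the values were 0.90, 0.88, 0.82, 0.79 and 0.44.

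Other miRNAs tied to lymphocyte development or NF-kB signalling were set beside the family as a list of 14, all of them tested. edgeR called 0 of the 14 in each comparison, where at most 0.833% of all tested miRNAs were called in either direction. Log2 values were above 0 for 10 of 14 in APAP against Control (median 0.08), 6 of 14 in dmPGE2+APAP against APAP (median -0.12) and 7 of 14 in dmPGE2+APAP against Control (median -0.01). Of all tested miRNAs, 44.7%, 50% and 46.1% were above 0 in the same order, with medians of -0.05, 0.00 and -0.03. The 3 most abundant were miR-21a-5p, an injury-responsive miRNA, at log2 -0.19 (SE 0.21), miR-125b-5p, a regulator of blood cell development, at 0.20 (SE 0.21), and miR-146a-5p, which is induced by NF-kB and restrains it, at -0.13 (SE 0.30) in APAP against Control. In dmPGE2+APAP against APAP the same 3 stood at -0.21 (SE 0.21), 0.08 (SE 0.21) and 0.02 (SE 0.30).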

How the data were processed

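Small RNA of total liver RNA was sequenced in 9 libraries. The authors deposited raw counts of reads for each mature miRNA, per the file headers. The submitters' processing notes name Bowtie and mm10. The miRNA annotation, the counter and its treatment of mismatches and multiple matches are not given in those notes. The table also holds TPM, which the authors deposited as each count over its library total with no length term; it served for 1 alternative of 1 comparison. Count columns with a prefix found in no label were taken as Control, the only group left, and their numbers only name libraries. The 3 TPM columns of that prefix were not used.

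The main test was the robust quasi-likelihood F test of edgeR 4.0.16 in R 4.3.3, with TMM factors and the filterByExpr filter (minimum count 10, minimum total 15). One model held the 9 libraries as 3 group means, and p-values were adjusted over 360 miRNAs by the Benjamini-Hochberg method at a threshold of 0.05. SEs and 95% intervals were derived from the F statistic. Alternatives used DESeq2 1.42.0, limma 3.58.1, other scalings and filters, thinning, a replicate block and leaving out each library. The scripts were tested on simulated data.

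The text names all 7 members, the other products of their hairpins, the 5 miRNAs most correlated with each of the top 2 guides, and the 3 most abundant of the comparison list. The members and lists were chosen with earlier results of these data known. Sequences are from RefSeq (GRCm38.p6), where 7 of 7 members matched.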

Additional observations from a re-analysis of the deposited data

How the results depend on the processing

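Over 21 pairs of a miR-181 arm and a comparison and 353 alternative fits, 0 fits called an arm (lowest adjusted p 0.177), and 10 of the 21 kept their sign throughout. In APAP against Control, miR-181a-5p became 0.0917 with library totals, and with a library left out miR-181c-5p ranged from -0.0191 to 0.36 and miR-181c-3p from -0.13 to 0.31. After thinning, miR-181c-5p stood at 0.97 in this comparison, the highest of its alternatives. In dmPGE2+APAP against APAP, miR-181d-5p became -0.0052 with limma-voom and -0.0036 with no filter, and with a library left out it ranged from -0.12 to 0.30, miR-181c-5p from -0.24 to 0.0534 and miR-181c-3p from -0.0559 to 0.64. In dmPGE2+APAP against Control, library totals gave 0.12 for miR-181a-5p, 0.17 for miR-181a-2-3p, 0.22 for miR-181b-5p and 0.21 for miR-181c-5p. There miR-181a-1-3p was -0.0168 with no filter, miR-181b-5p was 2e-04 with DESeq2, 0.0028 among miRNAs at 10 CPM or more and 0.0057 with only the groups compared, and miR-181c-5p was 0.0197 with DESeq2, 0.0088 with only the groups compared and 0.64 after thinning. With a library left out, miR-181a-1-3p ranged from -0.0513 to 0.39, miR-181a-2-3p from -0.66 to 0.49, miR-181b-5p from -0.0816 to 0.13 and miR-181c-5p from -0.10 to 0.26. The cause of these shifts was not tested, beyond the shift of all miRNAs that library totals bring. Summed 5p levels were 405, 361 and 376 CPM in Control, APAP and dmPGE2+APAP under TMM and 365, 385 and 398 by library total, and all 5p arms passed the filter.

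Counts over all miRNAs moved more. In APAP against Control, 3 higher became 8 with library totals, 6 with upper-quartile factors, 11 with DESeq2, 9 with no filter, 0 among 208 miRNAs at 10 CPM or more (by library total, without TMM factors, unlike the 206 of the report), 7 with only the groups compared, 1 after thinning to 1038799 reads and 0 to 9 with a library left out, and 0 lower became 1 with upper-quartile factors and 2 with DESeq2. In dmPGE2+APAP against APAP, 0 higher became 3 with DESeq2, 3 with no filter and 0 to 3 with a library left out, and 1 lower became 5, 6 and 0 to 4, 0 with only the groups compared, 0 with deposited TPM and 2 after thinning. In dmPGE2+APAP against Control, 1 higher became 2 with library totals, 2 with DESeq2, 0 at 10 CPM or more, 0 after thinning and 1 to 2 with a library left out, and 0 lower became 1 with no filter. The count of arms lower in APAP without overlap, with alternatives chosen after seeing the data, went from 5 to 0 with library totals, 4 with upper-quartile factors, 3 with DESeq2's size factors and 3 to 5 with a library left out. The TMM factors were computed anew for each library left out.

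The replicate block could be fitted only for dmPGE2+APAP against APAP, since the Control columns carry no labelled number. It gave 1 miRNA higher and 1 lower, with miR-181a-5p at 0.04 and miR-181a-2-3p at 0.65. Same-numbered libraries correlated at 0.172, -0.0951 and 0.119 in their deviations from the group means. Libraries with unlike numbers correlated at -0.281 to 0.152. So few pairs cannot decide whether the numbers mark matched libraries. The TPM alternative was not run for the comparisons with Control. No paired analysis was possible for the comparisons with Control because of the missing numbers. At the lowest depth, arms under 10 CPM rested on 8 to 18 reads, and thinning removed miR-181a-2-3p and miR-181c-3p from the test.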
